A study of Arabidopsis thaliana with 2 samples.

Results

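WRKY transcription factors were examined at the leaf margins of indeterminate *35S:miR319a/35S:amiR-NGA* leaves, in which the constitutive 35S promoter drives both miRNAs and the *CIN-TCP* and *NGATHA* genes they target are reduced. The members are the genes with a symbol of WRKY and a number, or with WRKY in their RefSeq names, for which the annotation used here names a probe set of their own. There were 7 of them among 13356 named genes, namely *ZAP1* (*WRKY1*, AT2G04880), *WRKY6* (AT1G62300), *WRKY20* (AT4G26640), *WRKY22* (AT4G01250), *WRKY42* (AT4G04450), *WRKY47* (AT4G01720) and *WRKY53* (AT4G23810). Of these, 6 were chosen by symbol and *ZAP1* by its synonym. RefSeq lists 72 WRKY genes of *Arabidopsis*, and the other 65 were not analysed here. This is a limit of that annotation, in which 8794 probe sets of the array are unnamed.

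The arrays formed 1 group of 2 biological replicates, margins cut from mature leaves of the Ler ecotype grown in soil with 16 h of light a day at 23°C. The genotype was taken from the methods of the study, as the sample labels do not name it. No other genotype and no other part of the leaf was analysed here, so an effect of the miRNAs on a WRKY gene could not be tested, and p-values are not reported. In a dissected strip, fewer cells that express a gene and less RNA per cell cannot be told apart.

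WRKY proteins are plant transcription factors named for the amino acids at the start of their DNA-binding domain, which also holds a zinc finger. They bind the W box of promoters, including those of other WRKY genes. In leaves they are best known for the response to pathogens and wounding, for salicylic acid signalling and for ageing. Group I proteins carry a pair of WRKY domains, while those of groups II and III carry a single one and differ in the zinc finger. Group II is further divided into IIa to IIe.

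Affymetrix ATH1 arrays gave 1 MAS5 signal for each probe set, a linear intensity with a median of 50 on each array. To count as above background, a gene had to exceed the 95th percentile of 6 genes expressed in pollen, anthers or roots. This bound was 7.21 in replicate 1 and 18.3 in replicate 2. All 3 further reference genes, which have no part in this bound, exceeded it on both arrays. Their signals in replicates 1 and 2 were 13.4 and 32.4 for *AGL61*, 9.87 and 25.0 for *AGL80*, and 91.7 and 58.1 for *PLIM2b*. The signals of *PLIM2b* were above those of *WRKY53* (47.2 and 49.4). Reference genes can thus pass too, and a call above background is only a comparison with the 6 genes used. Probe sets differ in how well they hybridize, so the order of signals below is not an order of transcript numbers. Markers of leaf cell types were read as well. All 3 measured mesophyll genes (*RCA*, *LHCB4.1* and *LHCB4.3*) exceeded the bound on both arrays, with summed signals of 4172 and 6653 in replicates 1 and 2. So did 2 of 3 stomatal lineage genes, and the summed signals of the 3 were 494.0 and 283.0. Over all named genes, 60.1% exceeded the bound on both arrays. With no other part of the leaf analysed, these markers cannot tell a margin from the rest of the leaf. The log2 signals of replicates 1 and 2 correlated with a Pearson's r of 0.931 across all probe sets, which are not independent of each other.

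Of the 7 WRKY genes, 4 (57.1%) exceeded the bound on both arrays, as did 60.1% of all 13356 named genes. *ZAP1*, *WRKY20*, *WRKY22* and *WRKY53* were the 4 genes. *WRKY47* and *WRKY6* were above it in replicate 1 alone and *WRKY42* in neither array. The median signal of the 7 genes was 47.2 in replicate 1 and 49.4 in replicate 2, beside medians of 33.2 and 36.7 over all named genes. Both values for the family are those of *WRKY53*, which stood in the middle of the 7 in each array. By structural group, both measured group I genes, the single measured IIe gene and the single measured group III gene passed the bound of each array. Of the 3 measured IIb genes, 0 did. RefSeq lists 14 genes of group I, 8 of IIe, 14 of group III and 8 of IIb, and no IIa, IIc or IId gene was measured. These counts therefore do not describe whole groups.

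**Figure D1:**
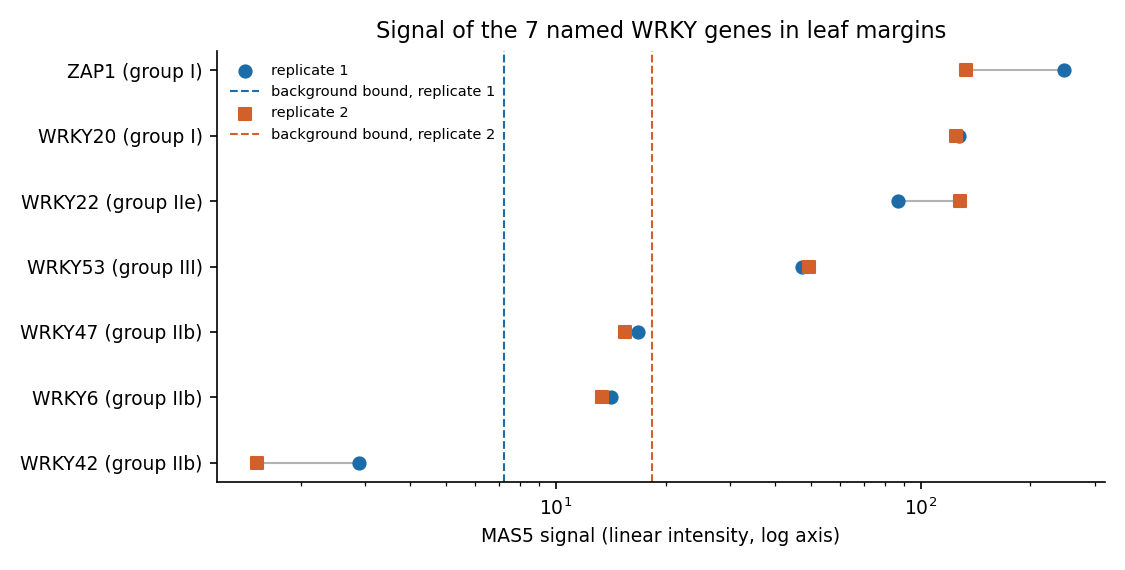
MAS5 signal (linear intensity on a log axis) of the 7 WRKY genes, each on its own line with its structural group, in replicate 1 (circles) and replicate 2 (squares) of the leaf margins. Dashed lines are the background bounds of 7.21 and 18.3, and the 3 IIb genes at the bottom all lie below the bound of replicate 2.

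The measured group I genes had signals well above the bound. *ZAP1*, which encodes a zinc-dependent activator protein, had a signal of 247.8 in replicate 1 and 133.3 in replicate 2, or 190.5 ± 81.0 (SD, n = 2). This was 34.4 and 7.28 times the bound of the respective array, and 88.6% and 75.9% of the named genes had a lower signal. *WRKY20*, also of group I, was at 127.6 and 124.7, or 126.1 ± 2.07 (SD, n = 2), which 75.2% and 74.0% of the named genes did not reach. Both signals of *ZAP1* were above both of *WRKY20*, although in replicate 2 the 2 genes were close.

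*WRKY22* (group IIe) acts downstream of the MAP kinase cascade that the bacterial protein flagellin sets off. Its signal was 86.5 in replicate 1 and 127.9 in replicate 2, or 107.2 ± 29.3 (SD, n = 2). In replicate 2 it was slightly above *WRKY20*, and in replicate 1 below it, so the ranges of these 2 genes overlapped. The signal was 12.0 and 6.98 times the bound.

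Genes with a role in leaf ageing were found on either side of the bound. *WRKY53* (group III), which promotes leaf senescence, was at 47.2 and 49.4, or 48.3 ± 1.53 (SD, n = 2), which is 6.55 and 2.698 times the bound. It was not above background in both arrays where the bound was drawn from the *Bacillus subtilis* control probe sets (27.9 and 69.4), from all probe sets (50 in each array) or from a reference list with 3 further genes (60.4 and 47.8). *WRKY6* (group IIb), active in senescing leaves and in the response to pathogens, was at 14.2 and 13.4, or 13.8 ± 0.534 (SD, n = 2). *WRKY6* thus passed the bound in replicate 1 and lay under it in replicate 2. Its signals were nearly equal, 1.06-fold apart, whereas the bound was 2.54-fold higher in replicate 2. The bound of replicate 1 lay between the signals of *ANX2* (3.60) and *EXPA18* (8.42). That of replicate 2 lay between those of the root genes *EXPA7* (12.1) and *EXPA18* (20.4). Calls in replicate 1 alone therefore rest on few reference genes.

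The other measured IIb genes were low as well. *WRKY47* was at 16.8 and 15.4, or 16.1 ± 0.947 (SD, n = 2), and it too passed the bound of replicate 1 alone, with signals 1.09-fold apart. *WRKY42*, which like *WRKY6* represses the phosphate exporter gene *PHO1*, was at 2.89 and 1.52, or 2.21 ± 0.965 (SD, n = 2). These are 0.401 and 0.0832 times the bound, and 17.1% and 8.24% of the named genes had a lower signal. The signals of *WRKY42* were within the range of the 6 reference genes. Their lowest and highest signals were 0.174 and 8.42 in replicate 1 and 0.796 and 20.4 in replicate 2. With a bound from the pollen and anther genes alone (3.28 and 3.89), *WRKY47* and *WRKY6* were above background in both arrays and *WRKY42* was in neither.

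Ordered by mean signal, the genes were *ZAP1*, *WRKY20*, *WRKY22*, *WRKY53*, *WRKY47*, *WRKY6* and *WRKY42*. The arrays of neighbours in this order overlapped for *WRKY20* and *WRKY22* and for no other neighbours. With n = 2 arrays, this separation is a description of these arrays.

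On the deposited scale, none of the 7 WRKY genes differed by more than 2-fold between the arrays, against 27.7% of all named genes. *WRKY42* and *ZAP1* came close to that limit, and the difference from the share of all genes was not tested. Among the 4 genes above the bound in both arrays, *ZAP1* was 1.86-fold lower and *WRKY22* 1.48-fold higher in replicate 2, while *WRKY20* and *WRKY53* differed by 1.02- and 1.05-fold. The signals of *WRKY42* were 1.90-fold apart, but both are at background and measure no difference in expression. Those of *WRKY47* and *WRKY6* were at background in replicate 2. After quantile normalization, which gives both arrays the same distribution, 1 of the 7 genes differed by over 2-fold, against 22.2% of all named genes. This was *WRKY42*, again at background, with a log2 ratio of -1.55. The ratios of *WRKY47* and *WRKY6*, below the bound of replicate 2, were then -0.52 and -0.53. Of the 7 genes, 2 had a higher signal in replicate 2, against 64.2% of all named genes. As a log2 ratio of replicate 2 over replicate 1, the median was -0.079 for the WRKY genes and 0.28 for all named genes.

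Since low signals vary more between arrays, each gene was also set beside the 500 other genes with the nearest mean log2 signal. The absolute log2 ratio of *WRKY20* was 0.033, where the median of its 500 neighbours was 0.35. For *WRKY53* the values were 0.065 and 0.42, for *WRKY47* 0.12 and 0.72, and for *WRKY6* 0.079 and 0.71. On the deposited scale these 4 genes had a smaller absolute ratio than 90.8% to 95% of their neighbours. For *WRKY42*, at 0.92 and 1.28 between background signals, this share was 66.4%. On that scale the median log2 ratio of all named genes was 0.28, and neighbours were not compared after quantile normalization. The log2 ratios were then -0.022 for *WRKY20* and 0.062 for *WRKY53*, but -0.52 for *WRKY47* and -0.53 for *WRKY6*. *ZAP1* and *WRKY22* differed more than the median of their neighbours. *ZAP1* was at 0.89 beside 0.36, and 9.2% of its neighbours had a larger ratio. *WRKY22* was at 0.56 beside 0.34, and 25.8% had a larger one.

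**Figure D2:**
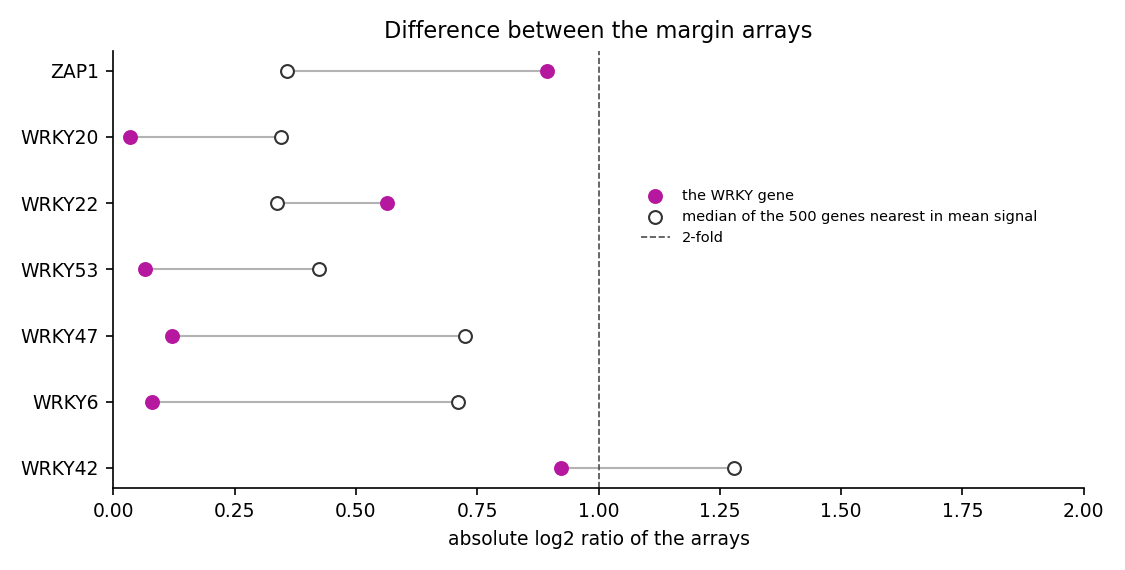
Absolute log2 ratio of replicate 2 over replicate 1 for each WRKY gene (filled) and the median of the 500 other named genes nearest to it in mean log2 signal (open). The dashed line marks 2-fold, and only *ZAP1* and *WRKY22* lie to the right of their neighbours' median.

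Other measures differed between the arrays along with *ZAP1* and *WRKY22*. The 3′ to 5′ signal ratio of control transcripts, which depends on RNA integrity and on labelling, was 1.70 and 3.93 for actin, 2.01 and 2.89 for ubiquitin and 1.496 and 1.499 for GAPDH in replicates 1 and 2. All 3 measured stomatal lineage genes were lower in replicate 2, as was *ZAP1*, with *SPCH* at 439.7 and 245.0, *FAMA* at 39.1 and 34.1, and *MUTE* at 15.2 and 3.92, the second of which is below the bound. The phloem gene *SWEET11* was at 139.5 and 61.4. Of the 3 mesophyll genes, 2 were higher in replicate 2, as was *WRKY22*, and so were 64.2% of all named genes. The meristem gene *CLV3* was below the bound in both arrays, at 5.32 and 1.69. The part of RNA integrity and of tissue makeup in the values of *ZAP1* and *WRKY22* was not tested.

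Genes that act with WRKY factors were looked up in 10 lists of 101 genes, of which 8 in 7 lists had a probe set named for them alone in the annotation used. The other list genes were not analysed here. Of the 8, 5 were above the bound in both arrays and 3 in replicate 1 alone, beside the 60.1% of all named genes that were above it in both. The lists of the MAP kinase cascade, of jasmonate and of phosphate had 0 genes named in that annotation, so the kinases upstream of *WRKY22* and the phosphate genes downstream of *WRKY6* and *WRKY42* were not analysed here.

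In pattern recognition, *BIK1*, a kinase that acts with immune receptors at the plasma membrane, was at 99.0 and 119.5, above the bound in both arrays like *WRKY22*. *EFR*, the receptor for a bacterial elongation factor, had signals of 9.38 and 2.34 and passed the bound of replicate 1 alone. *SAG101*, a partner of the immune regulator EDS1 in the salicylic acid pathway, was at 36.9 and 28.2. *PDF1.2*, a defensin gene used as a readout of jasmonate and ethylene signalling, was at 7.40 and 10.2, slightly above the bound in replicate 1 and below it in replicate 2.

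*IKU1* encodes a VQ protein, a class of proteins that bind WRKY factors, and works with WRKY10 in the endosperm. Its signal was 88.5 and 109.8. *ZAT10*, a zinc-finger gene induced within a short time by many stresses, was the only measured gene of 13 on the wound and touch list, at 332.1 and 279.2. The margins were removed with scissors and frozen, and how much of the signal of *ZAT10* or of any WRKY gene arose during dissection was not tested.

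*TRY*, a repressor of trichome fate, was at 32.4 and 68.8 and was the only measured gene of 11 on the trichome list. The trichome regulator *TTG2* (*WRKY44*), itself a WRKY gene, was not analysed here. The ageing gene *SAG29* was at 8.74 and 7.67, below the bound of replicate 2. With the main bound, *WRKY53* was thus above background in both arrays, whereas *WRKY6* and *SAG29* were above it in replicate 1 alone. Under the other bounds given above, the calls of *WRKY53* and *WRKY6* changed, so this contrast depends on the bound.

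**Figure D3:**
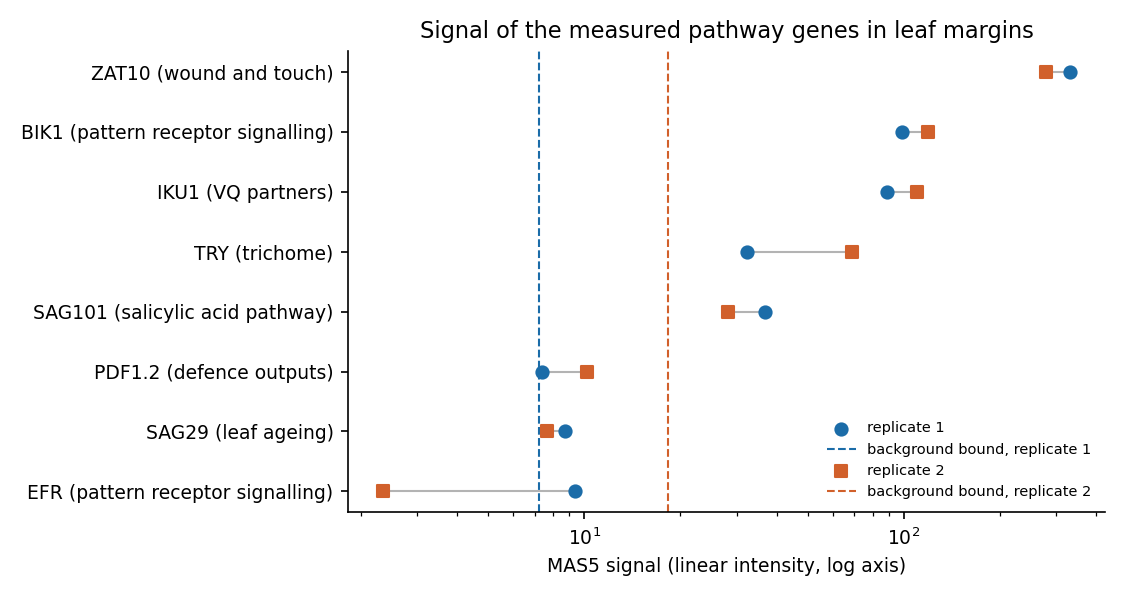
MAS5 signal (linear intensity on a log axis) of the 8 measured genes of the WRKY pathway lists in replicate 1 (circles) and replicate 2 (squares), with the background bounds as dashed lines. *ZAT10*, *BIK1*, *IKU1*, *TRY* and *SAG101* lie to the right of both bounds, and *PDF1.2*, *SAG29* and *EFR* lie below the bound of replicate 2.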

How the data were processed

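RNA of dissected leaf margins was labelled with biotin and hybridized to Affymetrix ATH1 arrays in 2 biological replicates. With MAS5 the authors computed and normalized 1 intensity for each of 22810 probe sets and deposited it on a linear scale. R 2.7.2 is given in the submitters' processing notes. Neither detection calls nor raw probe values were used here.

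The platform annotation assigns 13513 probe sets to 1 gene and 503 to several, and 8794 are unnamed. Of the first, 13436 were matched to RefSeq, whose assembly TAIR10.1 served for names alone. Each gene was represented by its probe set of highest mean signal, and all 7 WRKY genes had a single one, none of a type marked for cross-hybridization. RefSeq synonyms served as gene descriptions. No WRKY gene was on a probe set of several genes.

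The members and lists were chosen with earlier results of these data known. The genes named are all members and the measured genes of the lists, with mesophyll genes given as sums. The 6 reference genes are given as their range, with the values of those next to the bound. The 3 further reference genes, which have no part in the main bound, are *AGL61*, *AGL80* and *PLIM2b*. The subgroups follow the usual assignment of the family, since domains were not read from proteins here. The background bound rests on *MGH3*, *ANX1*, *ANX2*, AT5G07230, *EXPA7* and *EXPA18*. With 1 group no test was made, and SDs rest on 2 values, so precision is limited by the number of arrays. Alternatives were other bounds, quantile normalization, a pseudocount of 16, the lowest probe set and each array alone. Python 3.11.15, numpy 2.4.6, pandas 2.3.3 and matplotlib 3.10.9 were used. A run on simulated data checked only that the code finds large planted shifts. Its arrays scattered much less than the real ones, so it does not measure how reliable the calls are.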

Additional observations from a re-analysis of the deposited data

How the results depend on the processing

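The count of WRKY genes above background was 3 to 6 under the alternatives run, within 1.5 times of 4, and moved with the share of all named genes. That share was 38.5% to 41.6% under the bounds that gave 3 genes, and 70.3% to 77.8% under those that gave 6. *ZAP1*, *WRKY20* and *WRKY22* were above the bound under each of them. The count of IIb genes was 2 with a bound from pollen and anther genes alone, and it ranged from 0 to 2 with either replicate left out. The count of group III genes was 0 with the bound from 3 further reference genes, the *B. subtilis* controls or the median of all probe sets, and under these bounds 3 pathway genes were above background. The count of pathway genes ranged from 5 to 8 with either replicate left out. The median log2 signal of the WRKY genes was 6.01 with a pseudocount of 16, 6.85 over genes above the bound and 4.80 without *ZAP1*. The median log2 ratio was -0.52 after quantile normalization, where that of all named genes was 0.071, and 0.016 over genes above the bound. After quantile normalization 1 WRKY gene, *WRKY42*, differed by over 2-fold between the arrays (log2 ratio -1.55, at background in both), against 22.2% of all named genes, and without it 2 genes (*ZAP1* and *WRKY42*) exceeded a limit of 1.5-fold. Leaving out *ZAP1*, the 1.5-fold limit and the alternatives for the 2-fold count were chosen after seeing the data. Apart from these constructions the cause of the moves was not tested. Each gene had 1 probe set, so its lowest and highest are the same.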

Other observations

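Calmodulin-like proteins are calcium sensors, several of them induced by wounding or pathogens, and all 7 genes of this class with a symbol in the annotation were measured. These genes and those below were chosen once the annotation had been read. *CML42* (36.4 and 59.2 in replicates 1 and 2), *CML38* (48.2 and 36.4), *CML43* (11.9 and 27.6) and *CML23* (20.3 and 20.9) were above the bound in both arrays. *CML41* (37.6 and 17.4), *CML37* (10.1 and 5.13) and *CML30* (12.7 and 1.13) were above it in replicate 1 alone. The MAP kinase genes *ATMPK8* (136.2 and 86.7) and *ATMPK13* (60.1 and 32.1) were above the bound in both arrays and lower in replicate 2.

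*SGT1A*, a co-chaperone of immune receptors, had a signal of 256.4 and 315.0. *PR-1-LIKE* was below the bound in both arrays, at 2.08 and 6.21. *JMT*, which makes methyl jasmonate, was at 0.841 and 8.88, and *JRG21*, a gene regulated by jasmonate, had signals of 9.66 and 12.7 and passed the bound of replicate 1 but not of replicate 2. *IKU2*, a receptor kinase gene that works with *IKU1* in the endosperm, was at 2.24 and 5.46, below the bound in both arrays, whereas *IKU1* was above it in both.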
